A study of Mus musculus with 12 samples.

Results

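Motor neurons of the spinal cord are grouped into columns by the body region they innervate, and within the limb-innervating lateral motor column (LMC) into pools that each supply 1 muscle. Hox transcription factors set these identities along the rostrocaudal axis. Hoxc6 belongs to the forelimb level, Hoxc9 to the thoracic level and Hoxc10 to the hindlimb level. A set of 8 genes that mark or specify motor columns and pools was followed here: Foxp1, Aldh1a2 and Lhx1, which act in limb-level columns, the pool genes Etv1, Etv4, Pou3f1 and Runx1, and Mecom, which encodes a zinc finger transcription factor. They are 8 of the 21938 protein-coding genes examined on chromosomes 1 to 19, X and Y.

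Open chromatin had been mapped by ATAC-seq, in which a transposase cuts accessible DNA, in mouse embryonic stem cells grown as embryoid bodies and directed towards motor neurons. The 12 samples formed 6 groups of 2. The EB group had received no patterning factors and the Day2 group had been patterned for 2 days with 1 µM retinoic acid (RA) plus 0.5 µM SAG, which activates Hedgehog signalling, and both came from the parental line Ainv15(iCre). The other groups were collected at day 4 of RA and SAG. The iHoxc6, iHoxc9 and iHoxc10 groups, from lines Ainv15(iFlag.Hoxc6), Ainv15(iFlag.Hoxc9) and Ainv15(iFlag.Hoxc10), were in addition given 3 µg/mL doxycycline (Dox) over their final 48 h. In each of these lines the Flag-tagged Hox gene is a single inducible copy at the HPRT locus, and whether a line is 1 clone was not stated in the labels. The NoDox group was the Ainv15(iFlag.Hoxc6) line without Dox.

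For every group 1 list of accessible domains was available, made from both samples together. The lists therefore gave no value per sample, no spread between samples and no test, and all differences below are between 6 lists. The lists held 56232 to 94875 domains and covered 17.8 to 29.7 Mb. The iHoxc9 list covered the least sequence (17.8 Mb) and the iHoxc10 list held the fewest domains (56232), with a median width of 212.5 bp against 129 to 155 bp in the other 5 lists. Read depth is unknown, so a domain missing from a list may be a site that was not called at that depth. As for tissue identity, 7 of 7 motor neuron markers had a domain at the promoter in every list, the unpatterned EB list included, except that Chat had none in iHoxc9. All 5 ventral progenitor markers had one in every list. Pluripotency promoters were held for 5 of 6 markers in EB, 3 in Day2 and 2 in each day 4 list, with Pou5f1 and Nanog at 0 from Day2 on. Promoter domains of interneuron markers were found for 3 to 6 of 6 genes, of mesoderm and endoderm markers for 4 or 5 of 6, and of glial markers for 1 or 2 of 4. An accessible promoter is no measure of expression.

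A gene's locus was taken as all domains that overlapped 1 kb to either side of a transcription start site (TSS), overlapped the gene body, or had a TSS of the gene as the nearest protein-coding one. Domains were counted at full length, also where they ran beyond the promoter window or the gene. The 8 loci together held 109 domains covering 26434 bp in EB, 131 covering 30160 bp in Day2 and 131 covering 37274 bp in NoDox. They held 125 domains covering 30438 bp in iHoxc6, 84 covering 21044 bp in iHoxc9 and 96 covering 29000 bp in iHoxc10. Measured per Mb of sequence in the list, the iHoxc10 list gave these loci the most, 1441 bp against 1147 to 1253 bp in the other 5 lists. The iHoxc9 value on this scale was 1185 bp and the iHoxc6 value 1229 bp. So the small iHoxc9 total went with a small list, whereas the iHoxc10 list covered the loci almost as much as iHoxc6 did from a smaller list.

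**Figure D1:**
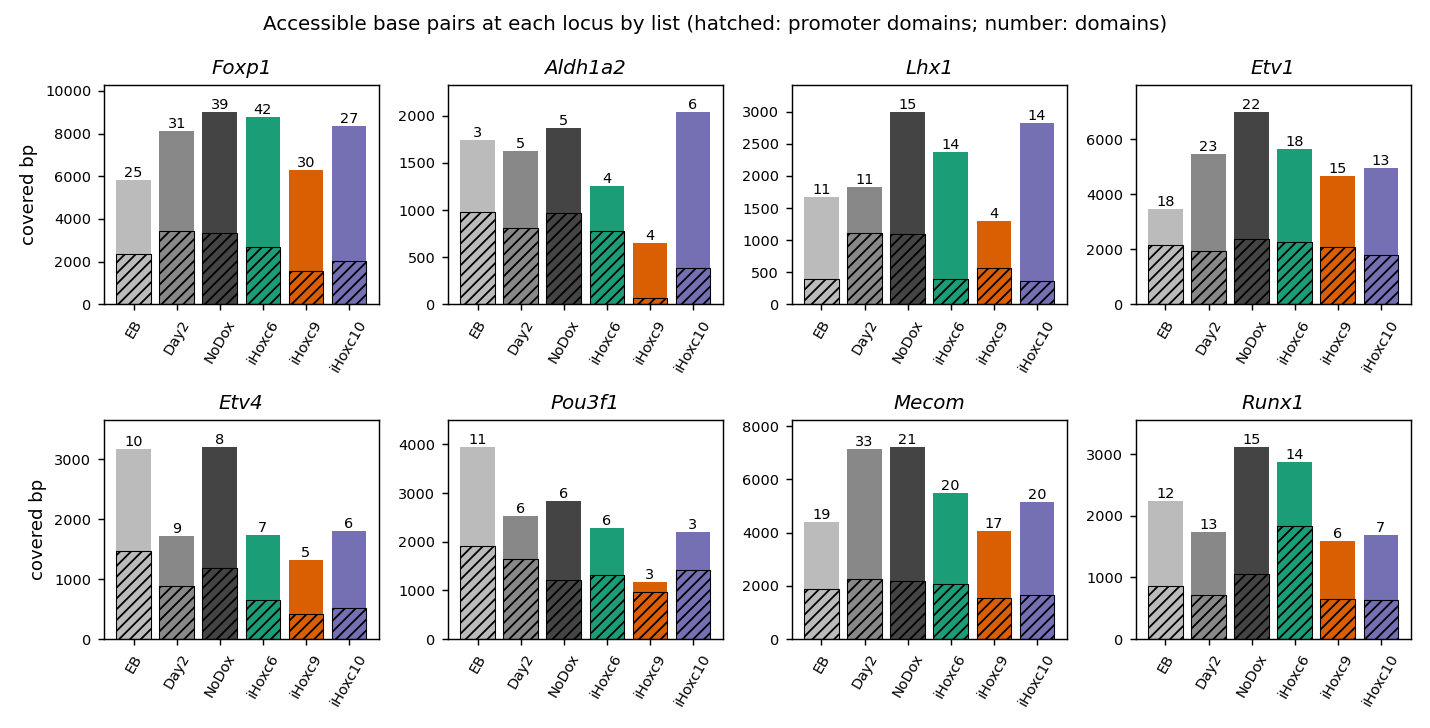
Base pairs covered by accessible domains (vertical axis) at the 8 loci in the 6 lists (horizontal axis). Bars start at 0, hatching marks the part in promoter domains and the number on each bar counts domains. The iHoxc9 bar is the lowest of the 3 induced lists at every locus, and the Aldh1a2 bar of iHoxc10 (2040 bp) is the highest of that gene.

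Sequences from regions that differed between the induced lists are shown first. Domains were merged across lists into regions, and the widest region of each pattern was taken at each gene. Of these, the 2 widest held by iHoxc9 and iHoxc10 but not by iHoxc6 lay in introns of Aldh1a2 and Mecom, and the 2 widest held by iHoxc6 and iHoxc10 but not by iHoxc9 lay at Mecom and Etv1. The middle 300 bases of each are given from GRCm38 (mm10), plus strand. A region spans the domains of all lists that hold it, so a list named need not cover every base printed. At Etv1 the domains covered 203 bp in iHoxc6 and 225 bp in iHoxc10. At Aldh1a2 the iHoxc9 domain began 1555 bp downstream of the start, beyond the first TAAT printed. Capitals mark TAAT, the core bound by many homeodomains, and ATAAA, the core preferred by posterior Hox proteins such as Hoxc9 and Hoxc10, on either strand (ATTA and TTTAT on the reverse).
Aldh1a2 intron, iHoxc9 and iHoxc10, chr9:71217288-71217587: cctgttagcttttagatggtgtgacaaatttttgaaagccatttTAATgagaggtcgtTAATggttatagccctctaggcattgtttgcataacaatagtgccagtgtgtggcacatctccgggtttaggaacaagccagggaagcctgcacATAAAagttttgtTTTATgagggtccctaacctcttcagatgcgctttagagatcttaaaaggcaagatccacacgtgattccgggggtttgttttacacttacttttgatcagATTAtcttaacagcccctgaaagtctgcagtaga
Mecom intron, iHoxc9 and iHoxc10, chr3:30086234-30086533: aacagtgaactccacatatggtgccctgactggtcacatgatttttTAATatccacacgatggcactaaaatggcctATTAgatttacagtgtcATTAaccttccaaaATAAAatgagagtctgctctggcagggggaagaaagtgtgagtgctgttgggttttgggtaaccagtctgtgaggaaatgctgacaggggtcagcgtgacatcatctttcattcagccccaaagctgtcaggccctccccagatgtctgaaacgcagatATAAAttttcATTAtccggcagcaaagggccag
Mecom intron, iHoxc6 and iHoxc10, chr3:30192639-30192938: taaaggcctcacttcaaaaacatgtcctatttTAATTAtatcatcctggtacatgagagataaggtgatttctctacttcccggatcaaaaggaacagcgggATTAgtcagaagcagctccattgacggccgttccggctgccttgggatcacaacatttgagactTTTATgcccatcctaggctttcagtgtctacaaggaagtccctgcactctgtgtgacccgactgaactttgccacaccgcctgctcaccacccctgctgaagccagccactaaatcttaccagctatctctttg
Etv1 upstream region, iHoxc6 and iHoxc10, chr12:38508226-38508525: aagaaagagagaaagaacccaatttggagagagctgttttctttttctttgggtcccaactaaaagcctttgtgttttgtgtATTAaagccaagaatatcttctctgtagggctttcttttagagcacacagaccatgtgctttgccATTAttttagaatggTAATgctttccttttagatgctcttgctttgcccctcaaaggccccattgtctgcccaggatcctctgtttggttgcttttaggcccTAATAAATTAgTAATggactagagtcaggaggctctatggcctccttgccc
The Aldh1a2 stretch held 3 TAAT and 2 ATAAA matches and the first Mecom stretch 4 and 2. The second Mecom stretch held 3 and 1, and the Etv1 stretch 6 and 1. Such letters are frequent. Of the central 300 bases of all 218562 merged regions, 72.8% held at least 1 TAAT and 50.5% at least 1 ATAAA. A match is a description of the letters and no binding site.

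Aldh1a2 encodes the retinaldehyde dehydrogenase with which LMC neurons make retinoic acid. The gene lies at chr9:71215789-71296243 on the plus strand. Its locus covered 1740 bp in EB, 1621 bp in Day2 and 1869 bp in NoDox. Among the induced lists it covered 1259 bp in iHoxc6, 650 bp in iHoxc9 and 2040 bp in iHoxc10. The iHoxc10 value was the highest of the 6 and the iHoxc9 value the lowest. With 100 bp added to both values, iHoxc9 was 2.85-fold lower than iHoxc10 (log2 ratio -1.51), a lower ratio than that of all but 2.02% of the 14428 genes whose loci averaged at least 500 bp. Compared with iHoxc6, iHoxc10 was 1.57-fold higher, above 98.8% of those genes. This second difference depended on the settings. It stayed below 1.5-fold with gene body and promoter alone (1807 bp in iHoxc10, 1259 bp in iHoxc6), and also with 500 bp added.

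Around the Aldh1a2 start the lists differed in both directions. The CpG-rich promoter region at chr9:71215236-71216217 (71.3% GC) was covered by 980 bp of domain in EB, 812 bp in Day2, 701 bp in NoDox and 747 bp in iHoxc6. It was covered by 326 bp in iHoxc10 and by a single domain of 64 bp in iHoxc9. Within the gene, 1648 bp downstream of the start, the intronic region chr9:71217100-71217775 was covered by 432 bp in iHoxc9 and 601 bp in iHoxc10 and by no domain in the other 4 lists. This 676 bp region, of 39.6% GC, held 8 TAAT matches, 4 ATAAA matches and 1 TGATTTAT, a composite letter string of Pbx and posterior Hox sites. The promoter itself, printed in RefSeq's GRCm38.p6 as chr9:71215539-71215838 on the plus strand, held none of the 3 strings, while 58.0% of 32851 promoters of this length held TAAT, 40.0% held ATAAA and 0.977% held TGATTTAT. It is shown because its domain was short in iHoxc9 and iHoxc10, and no capitals appear in it.
Aldh1a2 promoter: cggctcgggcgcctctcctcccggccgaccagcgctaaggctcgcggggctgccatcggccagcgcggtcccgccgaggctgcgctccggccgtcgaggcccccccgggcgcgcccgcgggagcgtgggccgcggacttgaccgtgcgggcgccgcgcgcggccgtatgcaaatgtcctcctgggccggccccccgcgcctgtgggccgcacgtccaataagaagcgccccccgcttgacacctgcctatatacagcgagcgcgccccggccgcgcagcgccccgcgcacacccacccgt

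**Figure D2:**
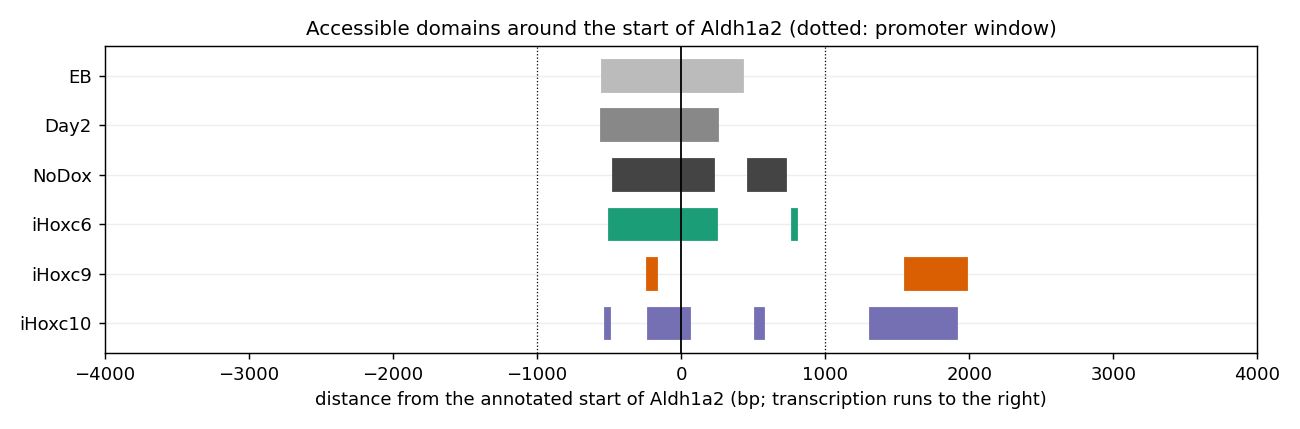
Domains of the 6 lists (rows) drawn to scale by their distance in bp from the annotated start of Aldh1a2 (horizontal axis), with dotted lines at 1 kb to either side. Domains beyond the promoter window, between 1311 and 1986 bp downstream, occur in iHoxc9 and iHoxc10, and the promoter domain of iHoxc9 is 64 bp long.

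A further intronic region of Aldh1a2, singled out after its values were seen, lay 25983 bp downstream of the start (chr9:71241328-71242216). It was absent in EB and covered by 590 bp in Day2, 580 bp in NoDox and 451 bp in iHoxc6, by 116 bp in iHoxc9 and by 818 bp in iHoxc10. At this region iHoxc9 was the lowest of the 5 patterned lists and iHoxc10 the highest, whereas the region nearer the start was open in both. A distal region 116093 bp downstream of the start was covered by 289 bp in NoDox, 27 bp in Day2 and 233 bp in iHoxc10 and by none in iHoxc6 or iHoxc9.

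Foxp1 encodes a forkhead transcription factor that is high in the LMC, works with Hox proteins and is lower in the thoracic preganglionic column. It is a long gene on the minus strand, chr6:98925338-99522721. Its locus covered 5825 bp in EB, 8117 bp in Day2 and 9016 bp in NoDox. The induced lists covered 8781 bp in iHoxc6, 6276 bp in iHoxc9 and 8362 bp in iHoxc10. The iHoxc9 list was 1.39-fold lower than iHoxc6 and 1.33-fold lower than iHoxc10, and neither reached 1.5-fold. Of its 8 promoters (starts within 1 kb of each other counted as 1), the most upstream one and the most downstream one had a domain in all 6 lists. Upstream coverage was 776 bp in EB, 2134 bp in Day2 and 2090 bp in NoDox, then 1237 bp in iHoxc6, 639 bp in iHoxc9 and 983 bp in iHoxc10. Downstream coverage was more even, between 927 bp in iHoxc9 and 1435 bp in iHoxc6. A middle promoter was held by EB (560 bp) and Day2 (39 bp) alone, and the other 5 were covered in no list.

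Foxp1 held the most regions, 104 of the 336 at the 8 loci. Of these, 31 were also assigned to Gm20696, an overlapping gene model. The intronic region chr6:99335346-99335877 was held by iHoxc10 alone, over 532 bp. The intronic region chr6:99019839-99020061 was held by iHoxc9 (223 bp) and iHoxc10 (195 bp) alone and contained 6 TAAT matches and 1 ATAAA. The widest region held by iHoxc6 of the induced lists, chr6:98994117-98994764, was covered by 648 bp there and by 173 bp in NoDox. Of the regions noted after their values were seen, chr6:98933344-98933650 was covered by 258 bp in iHoxc6, 244 bp in iHoxc9 and 291 bp in iHoxc10 and by none in the other 3 lists. Another, chr6:99189486-99190504, was covered by 1019 bp in iHoxc10, 625 bp in NoDox, 272 bp in iHoxc9 and 227 bp in iHoxc6, and by none in EB and Day2.

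Lhx1 encodes a LIM homeodomain factor of the lateral division of the LMC, whose axons grow to the dorsal limb. The gene is short, chr11:84518284-84525535 on the minus strand, and 31 of its 35 regions lay outside it. Its locus covered 1670 bp in EB, 1834 bp in Day2 and 2997 bp in NoDox. It covered 2377 bp in iHoxc6, 1299 bp in iHoxc9 and 2824 bp in iHoxc10. The number of domains was 14 in iHoxc6 and in iHoxc10 and 4 in iHoxc9, and the iHoxc9 coverage was 1.77-fold lower than iHoxc6 and 2.09-fold lower than iHoxc10. The promoter did not share this order, with 571 bp in iHoxc9, 401 bp in iHoxc6 and 361 bp in iHoxc10. The difference thus lay upstream. At 128181 bp upstream, chr11:84653581-84653851 was covered by 271 bp in NoDox, 160 bp in iHoxc6 and 228 bp in iHoxc10 and by none in iHoxc9, EB and Day2. At 44033 bp upstream, chr11:84569387-84569749 was covered by 363 bp in iHoxc10 and 41 bp in NoDox alone, and at 53474 bp upstream, chr11:84578852-84579167 was covered by 264 bp in iHoxc6, 58 bp in Day2 and 34 bp in NoDox.

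Mecom encodes a zinc finger protein of the PRDM family and spans chr3:29951296-30548008 on the minus strand. Its locus covered 4393 bp in EB, 7153 bp in Day2 and 7231 bp in NoDox. It covered 5488 bp in iHoxc6, 4060 bp in iHoxc9 and 5139 bp in iHoxc10, and no pair of induced lists differed by 1.5-fold. The totals hid regions with opposite patterns within the same gene. The intronic region chr3:30086204-30086564 was covered by 339 bp in iHoxc9 and 351 bp in iHoxc10 and by none in the other 4 lists. The intronic region chr3:30192478-30193100 was covered by 391 bp in Day2, 610 bp in NoDox, 623 bp in iHoxc6 and 311 bp in iHoxc10 and by none in EB and iHoxc9. Of its 6 promoters, the most upstream one was covered by 1170 to 1536 bp in every list. An internal one was covered by 952 bp in Day2, 284 bp in iHoxc9 and between those values in the other 4.

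The pool genes Etv1 and Etv4 encode ETS factors that are switched on in limb pools once axons reach their targets. Etv1 (chr12:38779380-38870484, plus strand) covered 3447 bp in EB, 5453 bp in Day2 and 6989 bp in NoDox, and 5637 bp in iHoxc6, 4671 bp in iHoxc9 and 4957 bp in iHoxc10. Its induced values lay within 1.20-fold of one another, the closest of the 8 genes, and its promoter domains covered 1787 to 2359 bp in the 6 lists. The upstream region chr12:38508207-38508544, 271004 bp from the start, was covered by 203 bp in iHoxc6, 225 bp in iHoxc10, 253 bp in Day2 and 143 bp in NoDox and by none in EB and iHoxc9. Conversely, chr12:38631957-38632195 was covered by 121 bp in iHoxc9 and 238 bp in NoDox alone and held 2 TGATTTAT matches. Of the 56 regions of Etv1, 17 were also assigned to its neighbour Dgkb.

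Etv4 (chr11:101769742-101785371, minus strand) covered 3161 bp in EB, 1715 bp in Day2 and 3206 bp in NoDox, and 1741 bp in iHoxc6, 1325 bp in iHoxc9 and 1801 bp in iHoxc10. All 3 induced lists were at least 1.74-fold lower than NoDox, with iHoxc6 1.80-fold and iHoxc9 2.32-fold lower. Its promoter domain was also shorter in the induced lists, with 1461 bp in EB, 882 bp in Day2 and 1188 bp in NoDox against 656 bp in iHoxc6, 426 bp in iHoxc9 and 521 bp in iHoxc10. At 30356 bp upstream, in a region noted after its values were seen (chr11:101815406-101816049), the order was turned round, with 635 bp in iHoxc9 and 516 bp in iHoxc10 against 188 bp in iHoxc6, 167 bp in NoDox, 91 bp in Day2 and none in EB.

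Pou3f1 encodes a POU factor of forearm pools and lies at chr4:124656807-124660655 on the plus strand. Its locus covered 3954 bp in EB, 2526 bp in Day2 and 2846 bp in NoDox, and 2283 bp in iHoxc6, 1176 bp in iHoxc9 and 2191 bp in iHoxc10. The iHoxc9 value was 1.87-fold below iHoxc6 and 1.80-fold below iHoxc10. Its promoter domains covered 969 bp in iHoxc9, 1316 bp in iHoxc6 and 1425 bp in iHoxc10. In the induced lists, most of the rest lay in a region 11370 bp downstream of the start, chr4:124667756-124668597, which was again noted after its values were seen. It was covered by 169 bp in iHoxc9, 277 bp in EB, 643 bp in iHoxc6, 644 bp in Day2, 735 bp in iHoxc10 and 795 bp in NoDox.

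Runx1 encodes a Runt-domain factor found in a subset of cervical motor neurons, and spans chr16:92601466-92826149 on the minus strand. Its locus covered 2244 bp in EB, 1741 bp in Day2 and 3120 bp in NoDox, and 2872 bp in iHoxc6, 1587 bp in iHoxc9 and 1686 bp in iHoxc10. It was the only one of the 8 at which iHoxc9 and iHoxc10 were both over 1.5-fold below iHoxc6, by 1.76-fold and 1.66-fold. Of its 3 promoters the distal one had no domain in any list. The middle one, at chr16:92697328, was overlapped by domains of 641 to 1023 bp in sum in 5 lists and by 1841 bp in iHoxc6. The iHoxc6 domain was counted in full although it ran beyond the promoter window. Over the whole merged region, chr16:92697228-92699076, coverage was 1841 bp in iHoxc6 and 984 to 1349 bp in the other 5 lists. The most downstream promoter was covered by 110 bp in EB, 73 bp in Day2 and 260 bp in NoDox and by no domain in the induced lists. Away from the gene, 150121 bp upstream, chr16:92976092-92976448 was covered by 357 bp in iHoxc9 and 168 bp in iHoxc10, by 39 bp in NoDox and by none in the other 3 lists, and it held 6 TAAT and 5 ATAAA matches.

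Presence of a promoter domain did not separate the lists. All 8 genes had at least 1 in each list, while over all protein-coding genes the share was 69.1% in EB, 66.5% in Day2, 65.4% in NoDox, 65.7% in iHoxc6, 62.9% in iHoxc9 and 62.5% in iHoxc10. The extent of the domains did differ. Over the 8 genes, promoter coverage in iHoxc9 against iHoxc6 had a median log2 ratio of -0.46, beside -0.23 over 13088 genes with a promoter domain in every list. In iHoxc10 against iHoxc6 the medians were -0.32 and -0.09. In iHoxc9 against iHoxc10 they were close to each other, -0.16 and -0.12. Promoter coverage was not scaled to list length, so how far these medians depend on it was not tested.

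Across whole loci, the question was how the 3 induced lists compared with each other at the same genes. Each Hox factor was induced in its own line and had 1 list, so factor, line and read depth cannot be told apart. All 8 genes and 14428 of all genes passed the mean of 500 bp. The iHoxc9 list had the least coverage of the 3 at 8 of 8 genes, where it was the lowest at 61.7% of all genes. Against iHoxc6, iHoxc9 was at least 1.5-fold lower at 4 of 8 genes, Aldh1a2, Lhx1, Pou3f1 and Runx1, and higher at 0 (32.8% and 1.10% of all genes). The median log2 ratio was -0.65, beside -0.38 over all genes. Against iHoxc10, iHoxc9 was lower at Aldh1a2, Lhx1 and Pou3f1 and higher at 0 (17.8% and 5.15% of all genes), with a median of -0.41 beside -0.15. Against iHoxc6, iHoxc10 was lower at Runx1 and higher at Aldh1a2 (18.2% and 1.69% of all genes), with a median of -0.06 beside -0.21. These 3 comparisons share their lists and are not independent of each other. The promoters of the 7 motor neuron markers were also covered least in iHoxc9, by 2921 bp in sum against 4127 to 7037 bp in the other 5 lists. This was not particular to motor neuron markers. The iHoxc9 list also had the lowest sum of the 6 for pluripotency markers (571 bp against 740 to 3837 bp), for mesoderm and endoderm markers (1636 bp against 1987 to 5294 bp) and for glial markers (501 bp against 529 to 1384 bp). For ventral progenitor markers it was the lowest of the day 4 lists (5551 bp against 6384 to 11757 bp), above EB with 5002 bp, and for interneuron markers iHoxc10 was the lowest with 2171 bp beside 2643 bp in iHoxc9. The part of these sums in the result was not tested.

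**Figure D3:**
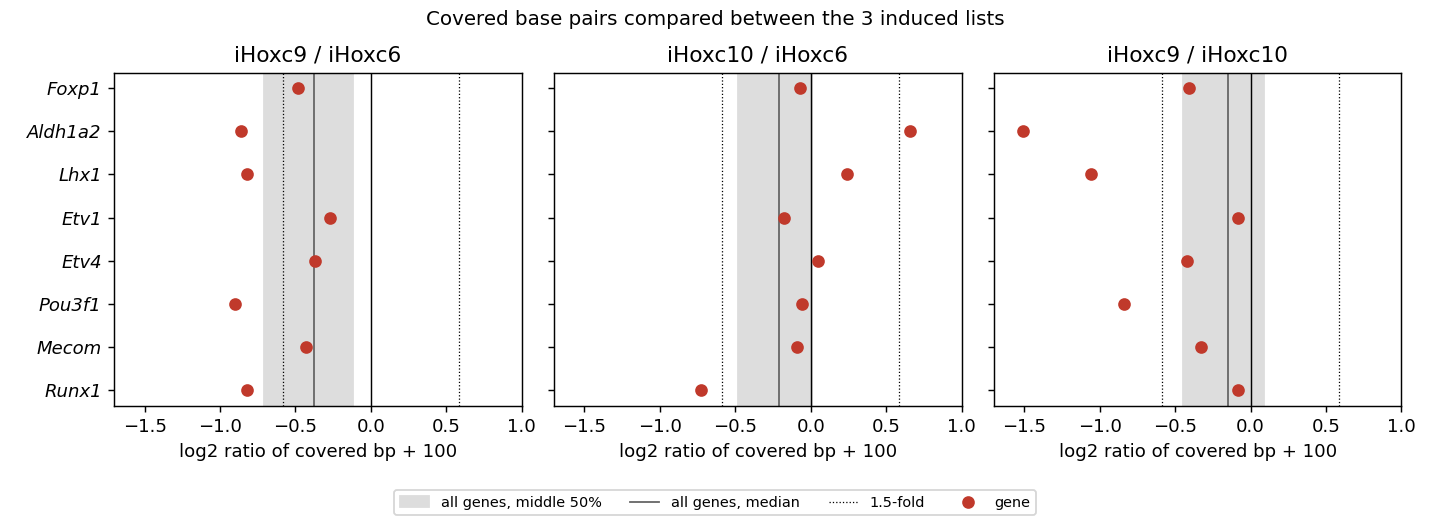
Log2 ratio of covered bp plus 100 bp (horizontal axis) at each gene (rows) for the 3 pairs of induced lists. Grey bands and lines give the quartiles and median of 14428 genes, and dotted lines mark 1.5-fold. Aldh1a2 lies at -1.51 for iHoxc9 over iHoxc10 and at 0.66 for iHoxc10 over iHoxc6, outside both bands.

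Because the lists differed in total length, the same ratios were taken after scaling each list to the sequence it covers. Then iHoxc9 was the lowest of the 3 at 4 genes, Foxp1, Aldh1a2, Lhx1 and Pou3f1 (32.5% of all genes). No gene of the 8 was 1.5-fold lower or higher in iHoxc9 than in iHoxc6 (11.9% lower and 7.46% higher over all genes). Against iHoxc10, iHoxc9 was still lower at Aldh1a2 (2.59-fold), Lhx1 (1.87-fold) and Pou3f1 (1.61-fold) and higher at 0 genes (12.1% and 8.83% of all genes). Against iHoxc6, iHoxc10 was higher at Aldh1a2 (1.92-fold) and lower at 0 genes (6.20% and 8.27% of all genes). The lower coverage of iHoxc9 against iHoxc6 thus depended on the scale. The differences of Aldh1a2, Lhx1 and Pou3f1 between iHoxc9 and iHoxc10 were found on both scales, but those of Lhx1 and Pou3f1 depended on what was counted as the locus. With gene body and promoter alone, and no scaling, 1 gene of the 8 was 1.5-fold lower in iHoxc9 than in iHoxc10, which was Aldh1a2 (612 bp against 1807 bp). At Lhx1 the order was then turned round, with 571 bp in iHoxc9 and 361 bp in iHoxc10, and Pou3f1 had 1007 bp against 1425 bp. The higher coverage of Aldh1a2 in iHoxc10 than in iHoxc6 also fell below 1.5-fold with that locus (1807 bp against 1259 bp). No share over all genes was taken with gene body and promoter alone, so these counts cannot be set against the genome.

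Against NoDox, which had the most coverage of any list at 6 of the genes, the induced lists were mostly lower, as they were over the genome. The iHoxc6 list was at least 1.5-fold lower at Etv4 and higher at 0 genes (15.7% and 1.66% of all genes). The iHoxc9 list was lower at 6 genes, all but Foxp1 and Etv1, and higher at 0 (55.6% and 0.714%). The iHoxc10 list was lower at Etv4 and Runx1 and higher at 0 (39.1% and 0.825%). Median log2 ratios were -0.31, -1.04 and -0.42, beside -0.25, -0.65 and -0.48 over all genes. These counts also depended on the scale. With each list scaled to the sequence it covers, iHoxc6 was lower at Etv4 and higher at 0 genes (5.56% and 4.01% of all genes). On that scale iHoxc9 was lower at Aldh1a2 alone and higher at 0 (13.4% and 9.18%), and iHoxc10 was lower at 0 genes and higher at Aldh1a2 (9.27% and 5.85%). The scaled medians were -0.06, -0.33 and 0.12, beside -0.01, 0.04 and 0.05 over all genes. That of iHoxc10 changed sign, but over all genes the medians of iHoxc9 and iHoxc10 both did so. At the genes followed here the iHoxc9 median stayed negative. The NoDox list differed from the others in its format and in the set of sample records it came with. Its name carried another day than its label, and whether it was called with the same settings as the other lists was not stated. This bears on every ratio to NoDox and on every count below that uses the regions of Day2 and NoDox. The induced iHoxc9 and iHoxc10 cells came from other lines than NoDox, so line, record set and induction cannot be told apart here. The iHoxc6 cells shared the line of NoDox but differed from it in record set as well as in Dox. In every induced list, exposure to Dox itself cannot be told apart from the Hox factor.

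During patterning, before any Hox induction, the genes did not move as a group. From EB to Day2, Etv1 and Mecom were 1.57-fold and 1.61-fold higher, and Etv4 and Pou3f1 were 1.80-fold and 1.54-fold lower (20.0% of all genes were higher and 8.43% lower). After scaling to list length, 0 genes were 1.5-fold higher, with Etv1 at 1.41-fold and Mecom at 1.45-fold, while Etv4 and Pou3f1 remained lower by 1.99-fold and 1.72-fold (13.8% higher and 12.4% lower over all genes). From Day2 to NoDox, Lhx1 was 1.60-fold, Etv4 1.82-fold and Runx1 1.75-fold higher, and 0 genes were lower (14.4% and 3.92%). After scaling, Etv4 and Runx1 were higher, Lhx1 was at 1.39-fold and 0 genes were lower (7.31% and 7.23%). The line also changed between Day2 and NoDox.

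The position of regions added detail that totals do not carry. The 336 regions of the 8 loci comprised 22 in promoters, 11 in exons, 154 in introns and 149 outside the genes, and 18 were in all 6 lists. An induced list held 178 of them. Of these, 31 (17.4%) were held by iHoxc10 alone of the 3, beside 7.91% of all regions. Foxp1 had 11 of them, Lhx1 7, and Etv1 and Mecom 4 each. Among regions at least 150 bp wide the shares were 12.6% (12 of 95) and 3.98%. The share held by iHoxc6 alone was 32.6% (58), beside 33.5%, and that held by iHoxc9 alone was 12.9% (23), beside 13.1%. Regions held by iHoxc6 and iHoxc9 numbered 8 (4.49%, beside 6.23%), by iHoxc6 and iHoxc10 12 (6.74%, beside 6.34%), by iHoxc9 and iHoxc10 5 (2.81%, beside 2.17%) and by all 3 lists 41 (23.0%, beside 30.8%). Narrow domains made up much of the private sets. Of the 38 regions in iHoxc6 and no other of the 6 lists, 34 were under 50 bp wide, as were 11 of 16 for iHoxc9 and 10 of 20 for iHoxc10.

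**Figure D4:**
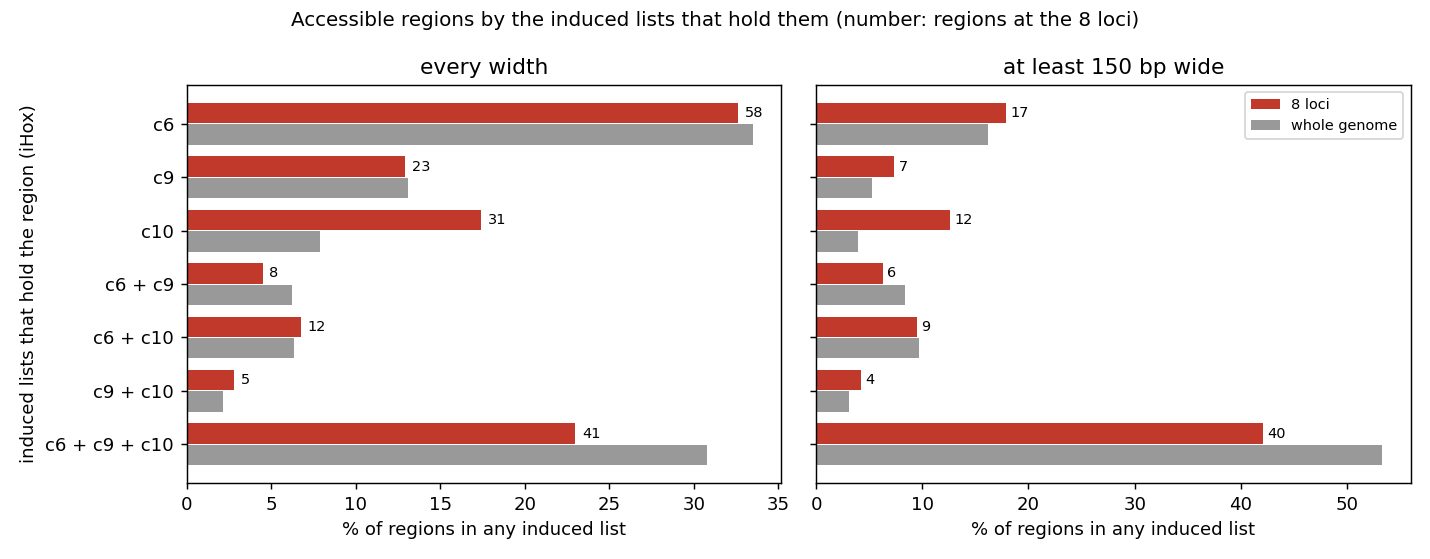
Share of merged regions (horizontal axis, % of regions in any induced list) by the induced lists that hold them (rows), at the 8 loci (red, with counts) and over the genome (grey), for all widths and for regions of at least 150 bp. The iHoxc10 bar of the 8 loci (17.4% and 12.6%) is longer than that of the genome (7.91% and 3.98%).

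Both Day2 and NoDox held 54 regions at these genes, a base that rests in part on the NoDox list, whose calling settings were not stated. The iHoxc6 list lacked 9 of them (16.7%, beside 11.7% of all such regions), iHoxc9 lacked 19 (35.2%, beside 27.5%) and iHoxc10 lacked 18 (33.3%, beside 26.6%). At Lhx1, iHoxc9 lacked 3 of 4, iHoxc10 2 and iHoxc6 1. Of the 54, 29 were held by every induced list (53.7%, beside 62.8% of all such regions) and 5 by none (9.26%, beside 7.69%). In the other direction, 43 of the 119 regions of iHoxc6 (36.1%, beside 33.6%) were in neither Day2 nor NoDox, with a median width of 42 bp. The same held for 23 of 77 in iHoxc9 (29.9%, beside 26.2%; median 54 bp) and for 26 of 89 in iHoxc10 (29.2%, beside 18.2%; median 85.5 bp). In iHoxc9 and in iHoxc10, the widest of them was the Aldh1a2 intronic region of 676 bp. No gained region was found at Etv4, and Lhx1 and Pou3f1 had none in iHoxc9.

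**Figure D5:**
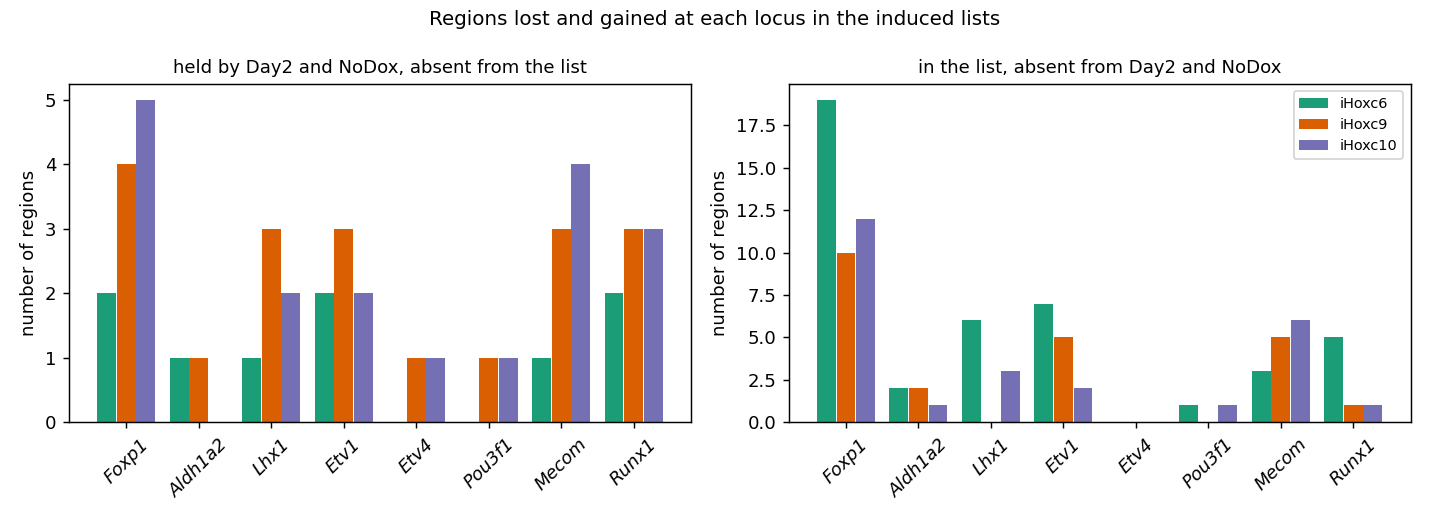
Number of regions (vertical axis) at each gene (horizontal axis) that Day2 and NoDox held and an induced list lacked (left), and that an induced list held and Day2 and NoDox lacked (right). Foxp1 has the most gained regions in each induced list (19, 10 and 12) and the most lost ones in iHoxc9 (4) and iHoxc10 (5), while in iHoxc6 it has 2 lost, as have Etv1 and Runx1. Gained regions at Lhx1 occur in iHoxc6 (6) and iHoxc10 (3) and not in iHoxc9.

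Matches to the 3 letter strings were then counted in all regions of the 8 loci on both strands. The TAAT string occurred 6.20 times per kb (4.99 over all regions) and ATAAA 2.78 times per kb (2.04), and each TGATTTAT also holds 1 of these ATAAA matches, as TTTAT. The rarer TGATTTAT (ATAAATCA on the reverse) occurred 14 times, 0.191 per kb against 0.0562. In the central 200 bp of each region the rates were 7.04 against 6.26, 3.35 against 2.72 and 0.179 against 0.0729 per kb. The 14 matches lay in 12 regions, and 6 of the matches were at Foxp1. Of the 12 regions, 11 were held by an induced list, but 4 were held by induced lists alone. An induced list held 178 of all 336 regions of the 8 loci. The same share over all regions with this string was not taken, so the 11 cannot be set against the genome. The 5 regions held by iHoxc9 and iHoxc10 alone of the induced lists had 14.9 TAAT and 7.44 ATAAA per kb, where all 2461 regions of this kind had 8.89 and 5.08. The 12 regions held by iHoxc6 and iHoxc10 had 9.53 and 3.94 per kb, against 6.90 and 2.39 for all of that kind. Not every pattern exceeded its genome rate. The regions held by iHoxc9 alone had 7.41 and 4.29 per kb (7.97 and 4.60 over the genome), and those held by iHoxc6 and iHoxc9 had 5.69 and 2.65 (6.49 and 2.76). The regions held by iHoxc6 alone had 8.00 and 1.48 (6.17 and 2.03), those held by iHoxc10 alone 7.13 and 3.98 (6.79 and 2.67), and those held by all 3 lists 5.49 and 2.63 (4.18 and 1.83).

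Other genes of motor columns and pools, 17 listed from textbook knowledge and all above the mean of 500 bp, gave a wider range. Against iHoxc6, iHoxc9 was at least 1.5-fold lower at 10 of 17 and higher at 0 (32.8% and 1.10% of all genes), with a median log2 ratio of -0.72. The lowest of the 17 ratios were those of Onecut1, Gfra1 and Nos1. Onecut1, a motor neuron homeodomain factor, had 1346 bp against 5882 bp, and Gfra1, a GDNF co-receptor, 1424 bp against 5278 bp. Nos1, an enzyme of preganglionic neurons, had 1 domain of 40 bp against 1064 bp. Against iHoxc10, iHoxc9 was lower at 7 and higher at 2, Foxp2 (5763 bp against 3647 bp) and the cadherin Cdh20 (6743 bp against 4055 bp), beside 17.8% and 5.15% of all genes. Against iHoxc6, iHoxc10 was lower at 4, Isl2, Gfra1, Sema3e and Cdh20, and higher at Lhx3 (3013 bp against 1926 bp), a LIM factor of the medial motor column, beside 18.2% and 1.69% of all genes. The iHoxc9 list was the lowest of the 3 induced lists at 12 of the 17 (61.7% of all genes). After scaling to list length, iHoxc9 was lower than iHoxc6 at 6 and higher at 2 of the 17 (11.9% and 7.46% of all genes) and lower than iHoxc10 at 5 and higher at 2 (12.1% and 8.83%). On that scale iHoxc10 was lower than iHoxc6 at 2 and higher at 1 (8.27% and 6.20%), and iHoxc9 was the lowest of the 3 at 11 (32.5%).

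The pattern over the 6 lists was also compared with that of all 14428 genes, as the Pearson correlation of log2 covered bp plus 100 bp over the 6 lists, whose depth and calling all genes share. Most like Aldh1a2 were Cacnb3 (r = 0.994), Lmx1b (0.990) and Gm49486 (0.990). Lmx1b covered 2138 bp in iHoxc9 and 5356 bp in iHoxc10. Most like Foxp1 were Wdyhv1, Cdk2ap1 and Mgme1, and most like Lhx1 were Capza1, Camk2n1 and St7l. For Etv1 they were Ubald1, Eya1 and Dohh, for Etv4 Arntl, Scaf4 and Smim14, and for Pou3f1 Esrp1, Glo1 and Dnmt1. For Mecom they were Sdc2, Acox3 and Gtf3c2, and for Runx1 Cldn34c1, Ccdc159 and Suox. With 6 points, between 62 and 353 genes passed r of 0.95 for each of the 8, so a high r singles out no gene.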

How the data were processed

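Domain lists came from the authors' pipeline, in which Bowtie2 placed read pairs on mm10 and DomainFinder marked open stretches. The submitters' processing notes name Bowtie2 2.2.2 and Picard 2.8.2. The deposited files hold domain positions in bp, as 1 list per group from both samples, with no height, read count or p-value. The NoDox list has 6 columns, 3 more than the others, with the additional ones constant. Read depth is unknown. Lists were not scaled except where stated.

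Starts were read as in BED format and printed counting from 1, and since the base was not stated, positions are uncertain by 1 bp. Domains were assigned to genes of GENCODE M21 (GRCm38). Covered bp were compared with 100 bp added, and a call needed a 1.5-fold difference. Alternatives were other widths, list lengths, locus rules, scalings, added bp and overlaps. Domains overlapping by at least 1 bp were merged across the 6 lists into regions. Sequence came from GRCm38.p6 with samtools 1.23.1 and pysam 0.24.0, and promoters from RefSeq, where 6 of the 8 genes matched. Python 3.11.15, NumPy 2.4.6 and Matplotlib 3.10.9 were used, and the interval code was tested on simulated lists (10 checks, 0 differing). The 8 genes and the lists were chosen with earlier results of these data known. Regions named are the widest of each pattern at a gene, except where a later choice is stated. Sequences of the 2 widest regions with iHoxc9 alone, taking 1 per gene (Foxp1 and Mecom), are not shown, since domains of that list covered 40 bp and 11 bp there.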

Additional observations from a re-analysis of the deposited data

How the results depend on the processing

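Of 228 alternative values of the results that compare lists, 173 stayed within 1.5-fold of the reported value (for medians, within 1.5-fold and of the same sign) and 55 did not. Of 269 other values, 210 stayed. No paired analysis was possible because 1 list per group was made from both samples, and for the same reason no sample could be left out. Equal lists of first lines, merging of the induced lists alone, the base of Day2 alone and the 50 bp width were chosen after seeing the data. The cause of the differences below was not tested.

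With lists scaled to the sequence they cover, the genes at least 1.5-fold lower numbered 0 for iHoxc9 against iHoxc6, 0 for iHoxc10 against iHoxc6, 1 for iHoxc9 against NoDox and 0 for iHoxc10 against NoDox, iHoxc9 was the lowest at 4 genes, and median log2 ratios were 0.23 for iHoxc10 against iHoxc6, -0.33 for iHoxc9 against NoDox, 0.12 for iHoxc10 against NoDox and -0.13 for Day2 against EB. The median of iHoxc10 against iHoxc6 was 0.15 with domains of at least 500 bp, 0.03 with equal lists of widest domains and 0.04 with equal lists of first lines. That of Day2 against EB was -0.08 with 150 bp, -0.01 and -0.07 with these equal lists and -0.02 with 50 bp. With domains of at least 500 bp, lower genes numbered 2 for iHoxc10 against iHoxc6, 5 for iHoxc9 against iHoxc10, 3 for iHoxc6 and 4 for iHoxc10 against NoDox, and iHoxc9 was the lowest at 4. With gene body and promoter alone they numbered 2 for iHoxc10 against iHoxc6, 1 for iHoxc9 against iHoxc10 and 2 for iHoxc6 against NoDox. Both kinds of equal list gave 0 for iHoxc10 against iHoxc6. Genes at least 1.5-fold higher in iHoxc10 than in iHoxc6 numbered 0 with gene body and promoter alone and 0 with 500 bp added. With domains of at least 500 bp they numbered 3. Apart from the scaled lists, no value over all genes was taken for these settings, so their counts and medians cannot be set against the genome.

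The widths here were applied to each domain before merging, whereas the 150 bp given earlier for regions was their width after merging. Regions with iHoxc9 alone of the induced lists numbered 3 at 150 bp, 1 at 500 bp and 14 with gene body and promoter alone. Those with iHoxc10 alone numbered 11, 6 and 16. Regions with iHoxc6 and iHoxc10 numbered 4 at 500 bp and 6 with gene body and promoter, and those with iHoxc9 and iHoxc10 2, 3 and, with first lines, 8. Regions of Day2 and NoDox that iHoxc6, iHoxc9 and iHoxc10 lacked numbered 3, 10 and 8 at 150 bp, 3, 8 and 4 at 500 bp, 2, 11 and 9 with widest domains, 3, 10 and 9 with first lines, and 4, 9 and 11 with gene body and promoter. With Day2 alone as the base they numbered 68, 84 and 83. The base changed with the setting. No share over all regions was taken for these counts, so they cannot be set against the genome.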
